A study of Mus musculus with 14 samples.

Results

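The genes described here are 45 genes of cell cycle and proliferation, matched by symbol among the 55291 symbols of the count files. The list was drawn up with earlier results of these data known. All 45 were found. They comprise 17 genes that act at G1/S, the entry into and passage through DNA replication, and 28 that act at G2/M, from mitotic entry to cytokinesis. The samples were 14 bulk mRNA sequencing libraries of esophagus from 9 wild type C57BL/6 mice, with no transgene or treatment in any group. Peeled epithelium was sequenced from 5 aged mice (18 months or older; O1, O2, O3, OF5 and OM8) and 4 young mice (4 months or younger; Y1, Y3, YF5 and YM4), and stroma from 3 of the aged (O1, O2, O3) and 2 of the young (Y1, Y3). Each mouse gave 1 library per layer. Epithelium and stroma were compared first, then aged and young mice in each layer.

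Cells enter the cycle when D-type and E-type cyclins, with their kinases, release E2F transcription factors from RB proteins, and E2F then switches on the genes for origin licensing and DNA synthesis. Genes of G2 and mitosis are switched on later, by a complex of MuvB with B-MYB and FOXM1 that acts through a promoter element called the CHR, often beside CCAAT boxes bound by NF-Y. In stratified squamous epithelium such as that of the esophagus, division takes place in the basal layer, and cells leave the cycle as they move up and differentiate.

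The RefSeq promoter windows (GRCm38.p6, 250 bases before to 50 after the start) held 34 of the 45 members, and matches to E2F and CHR letters were spread unevenly over the phases. The letters searched on both strands were TTTCGCGC, TTTGGCGC, TTTCCCGC and TTTGCCGC for E2F, TTTGAA for the CHR, and CCAAT. A gene with more than 1 window was counted once. An E2F match was found in 6 of the 12 G1/S genes with a window, in 2 of the 22 G2/M genes (9.09%) and in 2.61% of all 27025 genes. TTTGAA was found in 1 of 12 G1/S genes (8.33%), in 16 of 22 G2/M genes (72.7%) and in 20.2% of all genes, and CCAAT in 58.3%, 86.4% and 41.1% of them. The G1/S genes with an E2F match were Mcm3, Mcm5, Mcm6, Mcm7, Cdc6 and Cdt1. All 16 G2/M genes with TTTGAA also had CCAAT, against 8.97% of all genes with both. A related CHR form, TTTAAA, was less separated, at 25.0%, 31.8% and 14.9%. These are matches of letters and not measured binding sites. No window was found for Ccnd1, Ccnd2, Ccne2, Mcm4, Gmnn, Ccna2, Cdc25c, Aurkb, Foxm1, Kif20a and Tpx2.

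The 200 bases before the start are printed 5′ to 3′ for 2 G1/S genes with E2F matches and 4 G2/M genes with TTTGAA and CCAAT, with the letters of E2F, CHR and CCAAT matches on either strand in capitals. They lie, in GRCm38.p6, for Mcm5 at chr8:75109309-75109508 on the plus strand, Mcm6 at chr1:128359706-128359905 on the minus strand, Ccnb2 at chr9:70421555-70421754 on the minus strand, Kif11 at chr19:37376182-37376381 on the plus strand, Mki67 at chr7:135716380-135716579 on the minus strand and Top2a at chr11:99024190-99024389 on the minus strand. No annotated exon overlaps them.
Mcm5: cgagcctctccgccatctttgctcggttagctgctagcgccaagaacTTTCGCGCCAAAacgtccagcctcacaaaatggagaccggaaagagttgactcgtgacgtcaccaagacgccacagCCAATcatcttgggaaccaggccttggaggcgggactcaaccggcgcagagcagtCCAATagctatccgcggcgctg
Mcm6: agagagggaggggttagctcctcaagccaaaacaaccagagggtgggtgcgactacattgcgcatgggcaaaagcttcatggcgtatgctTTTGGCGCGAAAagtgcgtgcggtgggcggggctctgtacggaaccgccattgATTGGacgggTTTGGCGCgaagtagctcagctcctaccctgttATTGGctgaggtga
Ccnb2: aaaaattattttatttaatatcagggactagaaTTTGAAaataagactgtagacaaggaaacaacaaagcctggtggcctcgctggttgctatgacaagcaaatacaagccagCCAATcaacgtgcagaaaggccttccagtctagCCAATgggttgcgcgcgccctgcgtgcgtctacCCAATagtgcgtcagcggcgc
Kif11: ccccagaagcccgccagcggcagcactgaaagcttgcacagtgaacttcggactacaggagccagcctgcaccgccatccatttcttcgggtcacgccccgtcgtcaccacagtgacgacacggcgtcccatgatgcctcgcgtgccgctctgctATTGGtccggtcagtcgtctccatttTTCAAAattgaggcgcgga
Mki67: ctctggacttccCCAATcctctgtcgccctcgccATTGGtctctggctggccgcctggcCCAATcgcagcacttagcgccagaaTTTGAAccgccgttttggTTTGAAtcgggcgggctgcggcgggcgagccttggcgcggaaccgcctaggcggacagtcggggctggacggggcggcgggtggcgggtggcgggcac
Top2a: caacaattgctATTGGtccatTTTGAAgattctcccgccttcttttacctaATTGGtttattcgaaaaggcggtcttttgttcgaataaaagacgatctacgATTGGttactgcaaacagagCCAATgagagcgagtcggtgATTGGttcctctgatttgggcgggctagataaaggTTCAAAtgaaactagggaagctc
In Mcm5 overlapping E2F matches on the 2 strands begin 153 and 149 bases before the start, and Mcm6 holds 3, at 110, 106 and 47 bases. Kif11 has its only CHR match 19 bases and its only CCAAT match 45 bases before the start. Mki67 has TTTGAA at 116 and 98 bases, and Top2a a CHR match at 179 and another at 23.

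Depth differed between the libraries, and 4 stood apart. In the 5 mice with both layers the protein-coding counts were 7918744 to 10992868 in epithelium and 5980721 to 7641887 in stroma. In the 4 mice with epithelium only (OF5, OM8, YF5 and YM4) they were 1021586 to 1388574, or 10.9 to 16.5% of all counts against 44.8 to 55.2% in the other epithelium. The 45 members together had 741 to 1424 counts in these 4 libraries, 15286 to 21356 in the other 5 epithelial libraries and 1454 to 3877 in stroma. The layers matched their labels by keratinocyte and skeletal muscle markers. The 5 basal keratinocyte markers (Krt5, Krt14, Krt15, Trp63, Col17a1) summed to 819 to 2475 normalized counts in epithelium and 14 to 62.1 in stroma, and 5 skeletal muscle markers to 2.76 to 680.5 and 11840 to 17560. Fibroblast and smooth muscle RNA was present in both layers, with overlapping sums. The 6 fibroblast markers summed to 280.5 to 632.5 in epithelium and 415.2 to 1031 in stroma, and 5 smooth muscle markers to 333.4 to 835.0 and 302.6 to 2051. The part of both in the layer differences was not tested. A normalized count is the CPM after TMM scaling over the 14 libraries.

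The cell cycle genes were higher in epithelium than in stroma. Of the 45 members, 36 rose and 0 fell in the edgeR quasi-likelihood test (Benjamini-Hochberg adjusted p under 0.05 over the 16791 genes tested), where 56.2% of all genes tested were called, 26.1% higher in epithelium and 30.1% lower. The 9 others also had log2 fold changes above 0. Among the 36 were members near 0 in stroma, such as Kif11, Plk1, Bub1, Cdc20 and Ncapg. These passed the filter on low counts through epithelium, where they were high, so their p-values alone are not read as support. The median log2 fold change of the members was 2.47, a fold of 5.53, against -0.05 over all genes. The phases differed in size: the 28 G2/M genes had a median of 3.43 (10.8-fold) with 26 called, and the 17 G1/S genes a median of 1.07 (2.10-fold) with 10 called. In bulk tissue, fewer dividing cells and less of these RNAs per cell cannot be told apart. Of the G2/M genes, 18 had a larger fold change than any G1/S gene, and all 28 lay above the G1/S median.

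**Figure D1:**
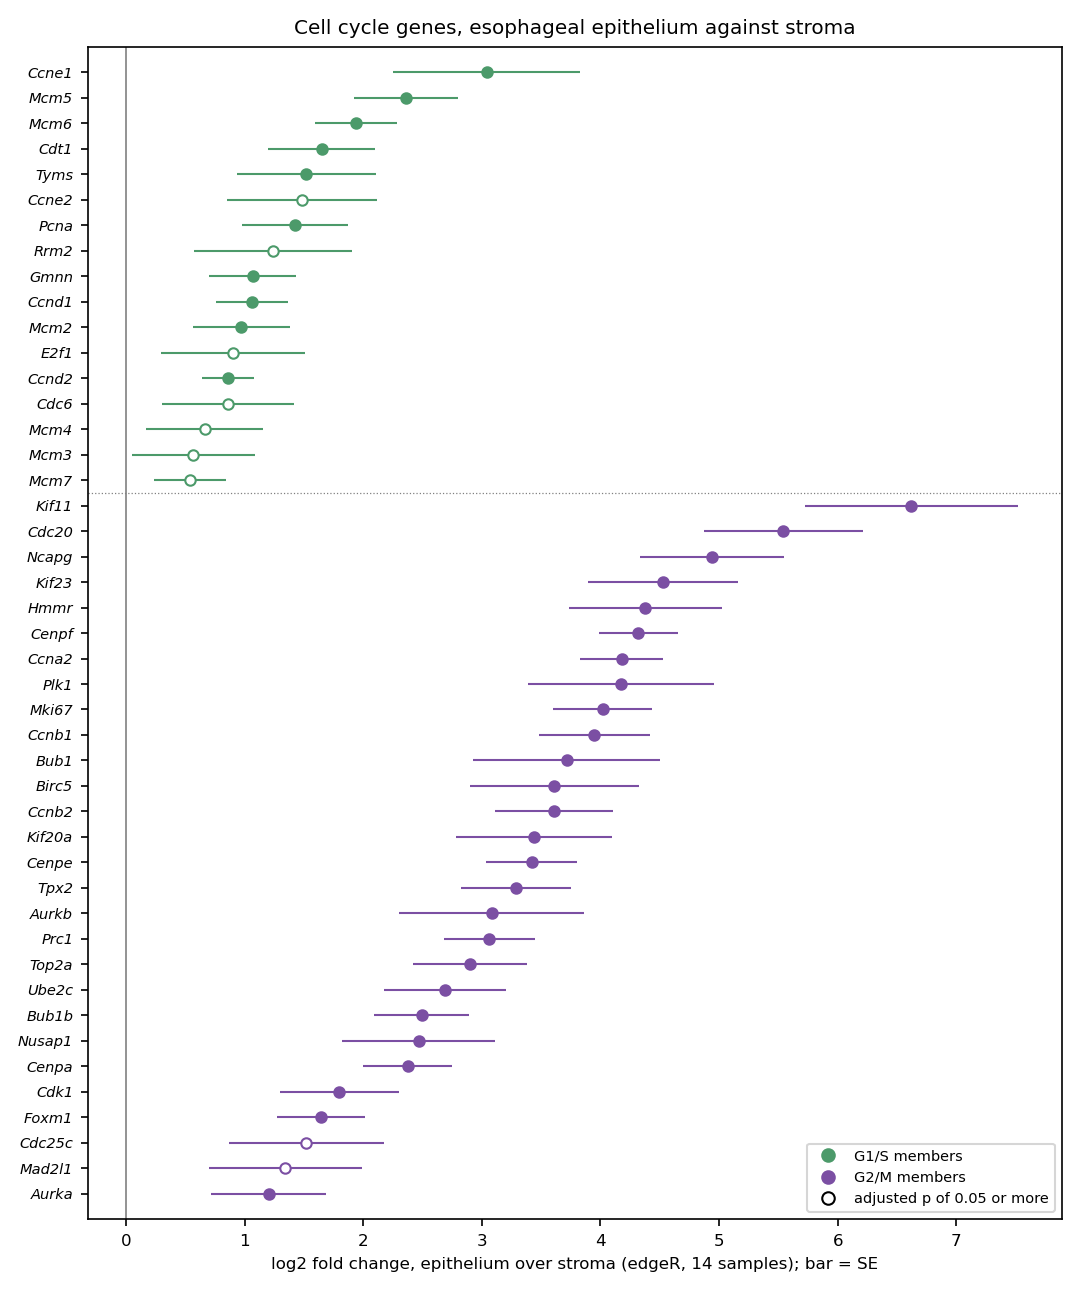
Log2 fold change of each member, epithelium over stroma, with its standard error (edgeR, 9 epithelial and 5 stromal samples), G1/S members above and G2/M members below the dotted line. Open circles did not pass the test; all 45 points lie above 0, from 0.54 (Mcm7) to 6.62 (Kif11).

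The separation held mouse by mouse. In the 5 mice with both layers, 41 of 45 members were higher in the epithelium of every mouse (14 of 17 G1/S and 27 of 28 G2/M), and with the mouse as a replicate block 39 were called higher (12 and 27), against 27.4% of all genes. In that fit the median log2 fold change was 1.66 for G1/S and 4.06 for G2/M genes, both larger than over the 14 libraries. These 10 libraries do not include the 4 shallow ones, and without the block they gave medians of 1.47 (G1/S) and 3.64 (G2/M). Every epithelial library lay above every stromal library for 20 of 45 members over the 14 libraries, against 14.4% of all genes. Those 20 were 19 G2/M genes and 1 G1/S gene, Mcm5. In the 5 mice alone they were 35 (26 and 9), against 26.0% of all genes.

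The D-type cyclins sense growth signals in G1, and both rose. Ccnd1 ranged from 6.84 to 29.6 with a median of 17.3 normalized counts in epithelium, and was 7.35, 9.45, 9.95, 10.6 and 8 in the stroma of O1, O2, O3, Y1 and Y3. The ranges overlapped through OF5 and OM8 only, at 7.24 and 6.84, and the log2 fold change was 1.06 ± 0.31 (SE, adjusted p = 0.00573, edgeR). Ccnd2 ranged from 28.8 to 71.8 in epithelium (median 39.0) and from 16.6 to 31.6 in stroma, with a log2 fold change of 0.86 ± 0.22 (adjusted p = 0.00231, edgeR). Per kilobase of exon, Ccnd2 had the highest level of any G1/S gene in both layers, 4.59 in epithelium and 2.54 in stroma, against G1/S medians of 1.53 and 0.590.

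Of the E-type cyclins and E2F1, which drive entry into S phase, only Ccne1 passed the test over the 14 libraries. Ccne1 ranged from 0 to 2.92 in epithelium (median 1.96) and from 0 to 0.670 in stroma, a log2 fold change of 3.04 ± 0.79 (adjusted p = 0.00270, edgeR). It was the largest of the G1/S genes, at low counts. Only OM8, where it had 0 counts, fell into the stromal range. Ccne2 missed the threshold (1.49 ± 0.63, adjusted p = 0.0508, edgeR), as did E2f1 (0.90 ± 0.61, adjusted p = 0.216, edgeR). Ccne2 passed with the mouse as a block (2.32, adjusted p = 0.0491, edgeR) and without O2, OF5 or OM8 (adjusted p = 0.0435 to 0.0484, edgeR).

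Origin licensing loads the MCM helicase onto DNA in G1, and its genes split. Mcm5 rose by a log2 fold change of 2.36 ± 0.44 (adjusted p = 1.2e-04, edgeR), from 0.421 to 2.18 normalized counts in stroma to 2.76 to 13.0 in epithelium (median 6.58), and the layers did not overlap. Mcm6 rose by 1.94 ± 0.35 (adjusted p = 8.4e-05, edgeR), and Mcm2 by 0.97 ± 0.41 with an adjusted p of 0.0497 (edgeR). The call of Mcm2 was lost without O1, O2, O3, Y1, Y3 or YM4 (adjusted p = 0.0687 to 0.159, edgeR). Mcm3, Mcm4 and Mcm7, which encode subunits of the same hexamer, did not pass, with log2 fold changes of 0.57 ± 0.52, 0.67 ± 0.49 and 0.54 ± 0.30 (adjusted p = 0.366, 0.263 and 0.135, edgeR). Their stromal levels were uneven: Mcm4 was 0.525 in O1, 5.96 in O2, 11.4 in O3, 3.46 in Y1 and 3.23 in Y3, and Mcm7 was 10.6 in O1 but 2.84 in O2. O3 had more Mcm4 in its stroma than in its epithelium (11.4 and 9.28). With the mouse as a block Mcm7 passed (0.97, adjusted p = 0.0315, edgeR) and Mcm3 and Mcm4 did not (adjusted p = 0.0516 and 0.0750, edgeR).

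The loaders of the helicase and their brake followed the same division. Cdt1, a licensing factor, rose by 1.65 ± 0.45 (adjusted p = 0.00379, edgeR) and Gmnn, which encodes its inhibitor geminin, by 1.07 ± 0.37 (adjusted p = 0.0178, edgeR). Without O2, Y1 or Y3 the adjusted p of Gmnn was 0.0556 to 0.0611 (edgeR). Cdc6, which loads MCM together with CDT1, did not pass (0.86 ± 0.56, adjusted p = 0.198, edgeR). Its highest level of all was in O3 stroma, 2.95, against 0.692 to 2.50 in epithelium, and without O3 it passed (1.87, adjusted p = 0.00646, edgeR).

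Of the DNA synthesis genes, Pcna, the sliding clamp of the polymerases, ranged from 1.25 to 9.14 in epithelium (median 6.41) and was 1.28, 4.07, 0.765, 1.96 and 2.92 in the stroma of O1, O2, O3, Y1 and Y3. It rose by 1.42 ± 0.45 (adjusted p = 0.0108, edgeR), with overlap through YF5, OM8, OF5 and YM4, at 1.25 to 3.46. Tyms, thymidylate synthase, rose by 1.52 ± 0.58 (adjusted p = 0.0324, edgeR), and Rrm2, a subunit of ribonucleotide reductase, did not pass (1.24 ± 0.67, adjusted p = 0.122, edgeR), though it did without O1 (1.87, adjusted p = 0.0400, edgeR). With the mouse as a block this was the other way round: Rrm2 passed (2.12, adjusted p = 0.0240, edgeR) and Tyms did not (2.23, adjusted p = 0.0651, edgeR). In O1 the stroma and epithelium were almost level for both, at 4.08 and 4.45 for Rrm2 and 4.08 and 4.19 for Tyms. Without O2, Y1 or Y3 the adjusted p of Tyms was 0.0909 to 0.103 (edgeR).

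**Figure D2:**
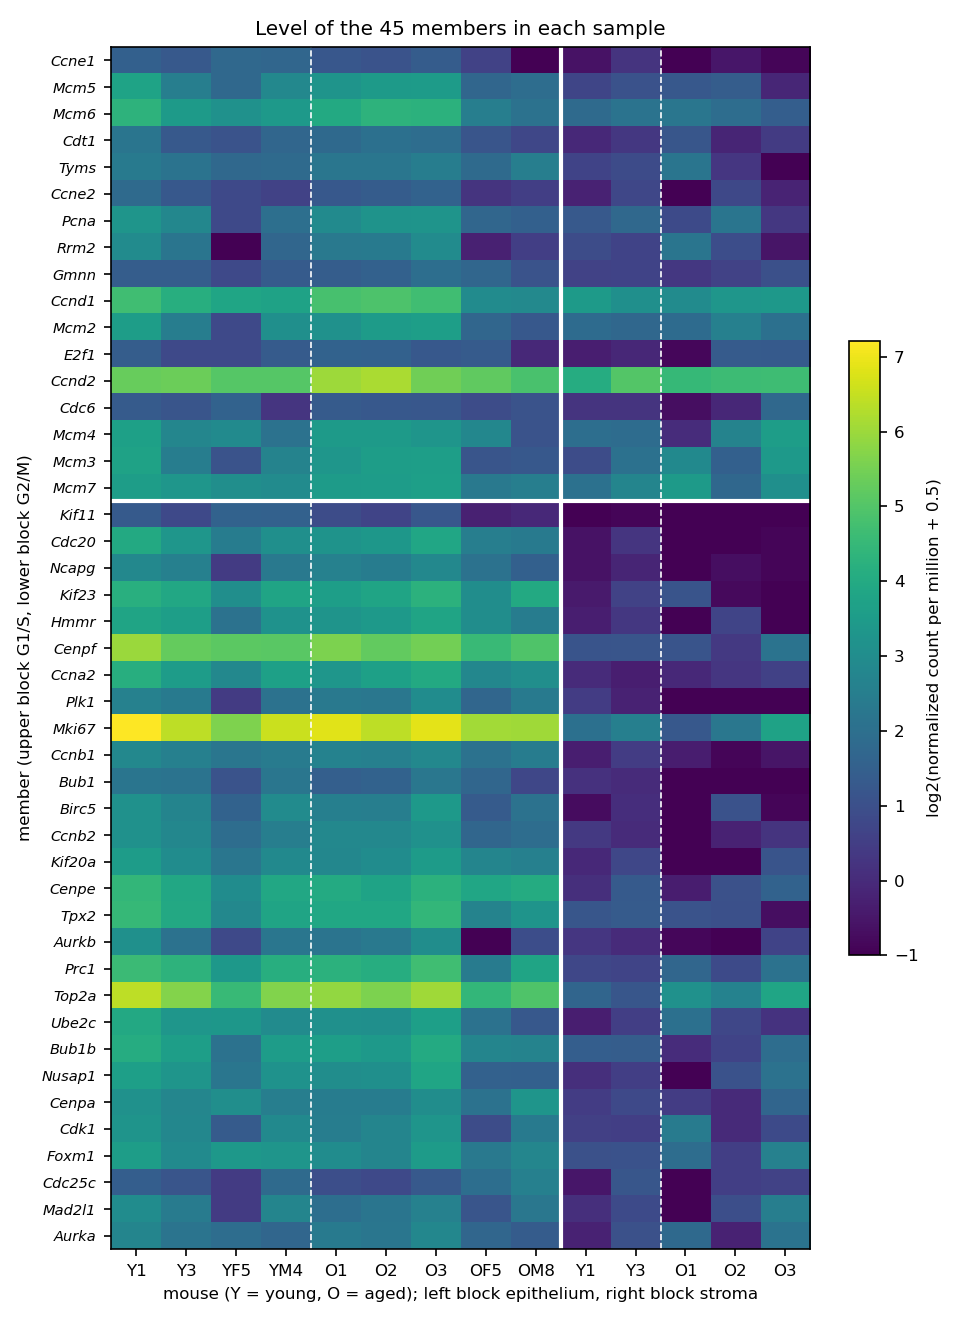
Level of each member in each of the 14 samples, as log2 of the normalized count (TMM-scaled CPM) plus 0.5, with epithelium left and stroma right of the solid line, G1/S genes above and G2/M genes below, and dashed lines between young and aged mice. The G2/M block changes between the layers in most rows (Mki67 is 49.2 to 148.2 normalized counts in epithelium and 1.93 to 12.9 in stroma), while most G1/S rows are closer.

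The mitotic cyclins and kinases rose in 8 of 9 cases. Ccna2, cyclin A2 of S phase and G2, ranged from 6.55 to 17.4 in epithelium (median 11.1) and was 0.467, 0.740, 0.995, 0.516 and 0.315 in stroma, so that the layers stood apart, with a log2 fold change of 4.18 ± 0.35 (adjusted p = 3.0e-09, edgeR). Ccnb1 and Ccnb2, the B-type cyclins of mitosis, rose by 3.95 ± 0.47 and 3.61 ± 0.50 (adjusted p = 4.3e-07 and 3.6e-06, edgeR), also with no overlap. Their kinase Cdk1 rose less, by 1.80 ± 0.50 (adjusted p = 0.00442, edgeR). Cdk1 was 4.84 in O1 stroma against 0.493 to 1.30 in the other 4 stromal libraries, and 5.06 in the epithelium of O1. The pseudogene Ccnb1-ps had 541 raw counts over the 14 libraries, and the part of shared reads in the Ccnb1 counts was not tested.

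Plk1, a kinase of mitotic entry and spindle assembly, had 0 counts in the stroma of all 3 aged mice and 0.877 and 0.355 normalized counts in that of Y1 and Y3, against 0.833 (YF5) to 7.45 in epithelium (log2 fold change 4.17 ± 0.79, adjusted p = 1.6e-04, edgeR). Aurkb, of the chromosomal passenger complex, rose by 3.08 ± 0.78 and Aurka, the centrosomal Aurora kinase, by 1.20 ± 0.49 (adjusted p = 0.00247 and 0.0412, edgeR). Without O2, Y1 or Y3 the adjusted p of Aurka was 0.116 to 0.154 (edgeR). Foxm1, the transcription factor of the G2/M programme, rose by 1.64 ± 0.37 (adjusted p = 7.7e-04, edgeR). The phosphatase gene Cdc25c, whose product activates CDK1, did not pass (1.52 ± 0.66, adjusted p = 0.0550, edgeR), and its stroma exceeded its epithelium in 1 of the 5 mice, Y3 (1.77 and 1.73). It passed without Y3 or YF5 (adjusted p = 0.0325 and 0.0484, edgeR).

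Among the genes of the spindle checkpoint and of the anaphase-promoting complex, which times the exit from mitosis, 4 of 5 rose. Cdc20, its activator, ranged from 4.71 to 15.3 in epithelium (median 8.78) and was 0, 0, 0.0383, 0.155 and 0.709 in the stroma of O1, O2, O3, Y1 and Y3. The layers did not overlap, and the log2 fold change was 5.54 ± 0.67 (adjusted p = 1.0e-06, edgeR). Cdc20 shares exon bases with Elovl1 on the opposite strand, whose own level was 80.0 in epithelium and 4.57 in stroma. Without a stated strand setting, the part of such reads in the Cdc20 counts was not tested.

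The checkpoint kinase genes Bub1 and Bub1b rose by 3.71 ± 0.79 and 2.49 ± 0.40 (adjusted p = 4.6e-04 and 2.3e-05, edgeR), both without overlap. Mad2l1, of the same checkpoint, did not pass over the 14 libraries (1.34 ± 0.65, adjusted p = 0.0851, edgeR), but did with the mouse as a block (2.30, adjusted p = 0.0405, edgeR) and without O3 (2.30, adjusted p = 0.00459, edgeR). Its stromal level ran from 0 in O1 to 5.20 in O3, where the epithelium had 5.63. Ube2c, the ubiquitin-conjugating enzyme of the complex, rose by 2.69 ± 0.52 (adjusted p = 1.9e-04, edgeR). It overlaps exons of the muscle gene Tnnc2 on the other strand, which stood at 57.6 in stroma and 0.417 in epithelium, and its stromal level was highest in O1 at 3.62.

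All 4 centromere and kinetochore genes rose without overlap. Cenpf, a kinetochore protein, ranged from 23.4 to 63.3 in epithelium with a median of 37.0, and was 1.69, 0.781, 3.90, 1.70 and 1.73 in the stroma of O1, O2, O3, Y1 and Y3. Its log2 fold change of 4.32 ± 0.33 had the smallest adjusted p of the members, 1.1e-09 (edgeR). Cenpe, a kinetochore motor, Birc5 (survivin, of the passenger complex) and Cenpa, the centromeric histone H3 variant, rose by 3.42 ± 0.38, 3.61 ± 0.71 and 2.38 ± 0.37 (adjusted p = 2.1e-07, 2.9e-04 and 1.9e-05, edgeR).

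All 7 genes of the spindle and of cytokinesis rose. Kif11, the motor that pushes spindle poles apart, had 1 count in all 5 stromal libraries together and 241 in the 9 epithelial ones, a ratio of 166 with an exact 95% interval of 29.6 to 6598 for counting error only. Its fitted log2 fold change was 6.62 ± 0.90 (adjusted p = 2.8e-06, edgeR). Kif11 passed the filter on low counts only through the epithelial libraries, where it was high. Its p-value is therefore not read as support for a difference by layer. Per kilobase of exon it had the lowest epithelial level of the G2/M genes, 0.199 against a median of 1.70.

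The other 6 spindle genes ranged from 2.47 for Nusap1 to 4.53 for Kif23. Kif23, the motor of the central spindle, was 7.58 to 19.0 in epithelium and 0 to 1.69 in stroma (adjusted p = 1.1e-05, edgeR). Hmmr and Tpx2, which encode spindle assembly factors, rose by 4.38 ± 0.64 and 3.29 ± 0.46, the mitotic motor gene Kif20a by 3.44 ± 0.66, and Prc1, which bundles the microtubules of the midzone, by 3.06 ± 0.38 (adjusted p = 1.4e-05, 6.6e-06, 2.3e-04 and 1.1e-06, edgeR). Nusap1 (adjusted p = 0.00354, edgeR) was the only one of the 7 whose layers overlapped, at 3.79 in O3 stroma against 2.36 and 2.41 in the epithelium of OM8 and OF5.

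The mitotic chromosome genes held the most abundant member. Mki67, the marker Ki-67, was 114.3, 84.3, 118.1, 67.2 and 66.0 in the epithelium of O1, O2, O3, OF5 and OM8, and 148.2, 84.6, 49.2 and 92.8 in that of Y1, Y3, YF5 and YM4. In stroma it was 1.93, 4.31, 12.9, 3.61 and 5.40 in O1, O2, O3, Y1 and Y3. The lowest epithelial library lay above the highest stromal one, and the log2 fold change was 4.02 ± 0.41 (adjusted p = 2.1e-07, edgeR). Per kilobase of exon Mki67 had the highest epithelial level of all members, 9.11.

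Top2a, the topoisomerase that untangles sister chromatids, ranged from 21 to 83.5 in epithelium and from 1.81 to 13.7 in stroma, without overlap (2.90 ± 0.48, adjusted p = 9.3e-05, edgeR). Ncapg, of the condensin complex, rose by 4.94 ± 0.61 (adjusted p = 7.3e-07, edgeR).

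Summed per sample, the 2 phases were set apart by layer. The G2/M genes summed to 217.7 to 574.8 normalized counts in epithelium (365 ± 121, SD, n = 9) and 24.5 to 69.2 in stroma (38.2 ± 17.9, SD, n = 5). The G1/S genes summed to 67.7 to 207.1 (136 ± 52.1, SD, n = 9) and 50.5 to 79.1 (67.5 ± 10.5, SD, n = 5), and here the layers overlapped through OM8, at 67.7. The other 3 shallow libraries were at 108.0 or less. The ratio of the G2/M to the G1/S sum was 1.71 to 3.96 in epithelium and 0.412 to 0.874 in stroma, without overlap and with the 4 shallow libraries, at 2.40 to 3.96, inside or above the range of the other epithelium (1.71 to 3.17).

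**Figure D3:**
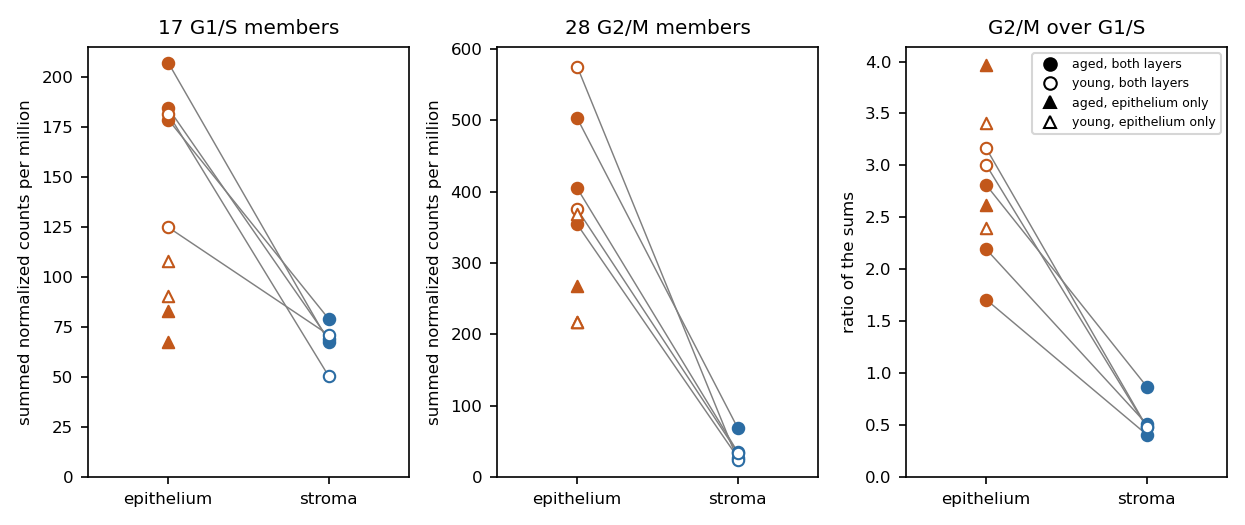
Summed normalized counts (TMM-scaled CPM) of the G1/S members (left) and of the G2/M members (centre), and their ratio (right), for each sample, with lines joining the layers of a mouse. The G2/M sum is 217.7 or more in all 9 epithelial samples and 69.2 or less in all 5 stromal samples, while the G1/S sums of the layers meet between 67.7 and 79.1.

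Keratinocyte marker RNA was also present in stroma. Stroma held 0.579 to 2.51% of the basal marker sum of the same mouse's epithelium. The same shares were 4.26 to 13.8% for the G2/M sum and 27.8 to 57.0% for the G1/S sum. The part of epithelial cells in the stromal sums was not tested. O3 had the highest value for the basal markers and for the G2/M sum. O3 stroma also had the most B and plasma cell marker counts (117.9 against 4.78 to 25.7 in the other stroma, with none of the 5 markers at 0 in all stroma), T cell markers (9.75 against 1.27 to 4.57), macrophage markers (249 against 96.2 to 124.8) and endothelial markers (134.8 against 38.0 to 90.3). The part of these cells in the O3 values was not tested. In epithelium, G2/M counts per 1000 basal marker counts were 145.9 to 238.1 in the 5 deeper libraries and 196.8 to 290.2 in the 4 shallow ones.

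Other genes of the cycle were taken from lists without the members, to be read against the 26.1% of all genes called higher and 30.1% called lower. Of 35 other G2/M genes of a common cell cycle scoring list, 28 rose and 0 fell, with a median log2 fold change of 2. The largest were those of Ckap2 (5.42 ± 0.52), a spindle protein, Ect2 (5.03 ± 0.61), the activator of RhoA in cytokinesis, and Ckap2l (4.74 ± 0.44), which binds the spindle. Of 33 other S phase genes, 32 were tested, 9 rose and 0 fell, with a median of 0.73, so that the share that rose was near that of all genes. The largest were those of Cdca7 (3.08 ± 0.35), of chromatin, Uhrf1 (2.20 ± 0.51), which maintains DNA methylation, and Clspn (2.19 ± 0.60), a replication checkpoint adaptor.

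Of 31 regulators of the cycle tested, 12 rose and 7 fell, against the same 26.1% and 30.1% of all genes. Among the CDK inhibitors, Cdkn1a (p21) was 71.1 in epithelium and 33.2 in stroma on average (1.10 ± 0.20, adjusted p = 1.1e-04, edgeR). Cdkn2b (p15) and Cdkn2c (p18) also rose (1.82 ± 0.69 and 1.5 ± 0.27, adjusted p = 0.0309 and 7.1e-05, edgeR). Cdkn1c (p57) was lower in epithelium, at 0.351 against 2.95 (-2.73 ± 0.60, adjusted p = 6.1e-04, edgeR). Cdkn1b and Cdkn2d did not pass (0.16 ± 0.14 and -0.84 ± 0.39, adjusted p = 0.337 and 0.0739, edgeR), and Cdkn2a, at 0.0444 and 0.264, was too low to test.

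Within the RB family, which holds E2F in check, Rbl1 (p107) rose by 1.63 ± 0.35, Rbl2 (p130) fell by 0.92 on the log2 scale (SE 0.18) and Rb1 did not pass (-0.30 ± 0.23). Their adjusted p-values were 5.5e-04, 2.1e-04 and 0.278 (edgeR). The largest rises among all regulators were those of E2f8 (1.84 ± 0.34), an atypical repressing E2F that is also in the S phase list, Cdkn2b and Cdk2 (1.67 ± 0.42), the kinase of cyclins E and A. The largest falls were those of E2f6 (-3.37 ± 0.28), a repressor of the same family, Cdkn1c and Lin52 (-1.45 ± 0.43), a MuvB subunit. Cyclin D3 also fell (Ccnd3, -0.88 ± 0.22), in the direction opposite to the other 2 D-type cyclins.

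No member passed the test for age in epithelium. In the 9 epithelial libraries (5 aged, 4 young), with a term for the 4 mice whose codes carry a second letter (OF5, OM8, YF5 and YM4), 0 of 45 members passed, and the smallest adjusted p was 0.9994 (edgeR). Over all 15107 genes tested 0.0132% passed, that is 2 genes. At an unadjusted p under 0.05 there was 1 member, Ube2c, against 3.36% of all genes. DESeq2 called 0 members and 28 genes in all. Of the G2/M genes, 25 of 28 had a log2 fold change below 0, aged over young, with a median of -0.24, whereas 9 of 17 G1/S genes were below 0, with a median of -0.01. Among all genes 50.5% were below 0. Markers of several cell types were also below 0: 4 of 5 basal keratinocyte markers (median -0.17), 5 of 5 of differentiated keratinocytes (-0.26), 6 of 6 of fibroblasts (-0.33, 3 of them at an unadjusted p under 0.05) and 5 of 5 of skeletal muscle (-1.18), none of them passing after adjustment. Their summed levels in aged and young epithelium were 819 to 2475 and 1107 to 2415 for basal keratinocytes, 17110 to 48280 and 26250 to 53230 for differentiated keratinocytes, 280.5 to 453.9 and 415.9 to 632.5 for fibroblasts and 2.76 to 392.6 and 11.1 to 680.5 for skeletal muscle, and no marker was at 0 throughout. Macrophage markers went the other way, with 5 of 5 above 0 (median 0.18), as did 3 of 5 of smooth muscle (median 0.009). Endothelial markers were below 0 in 4 of 5 (median -0.19). The part of all these cell types in the G2/M values was not tested.

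Of the 35 other G2/M genes, 28 were below 0, with a median of -0.16. The members are measured in the same libraries, so that their shared sign comes from 9 mice and not from 28 separate observations. Leaving out 1 mouse at a time moved the G2/M median between -0.41 and -0.09. For 0 of 45 members did the ages stand apart without overlap in epithelium, against 1.29% of the genes tested.

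Ube2c was 8.17, 8.06, 12.1, 3.79 and 1.89 normalized counts in the epithelium of O1, O2, O3, OF5 and OM8 and 14.9, 9.42, 9.58 and 7.27 in that of Y1, Y3, YF5 and YM4. The ages overlapped through O3 and YM4, and the log2 fold change, aged over young, was -0.68 ± 0.26 (adjusted p = 0.9994, edgeR). The next smallest p-values were those of Ccnd2 (0.34 ± 0.17, 48.6 ± 18.2 normalized counts in aged and 36.3 ± 3.97 in young, SD) and Cenpf (-0.29 ± 0.15, 36.4 ± 9.85 and 42.6 ± 13.9, SD), both with an adjusted p of 0.9994 (edgeR). Mki67 averaged 90.0 ± 25.1 (SD, n = 5) in aged and 93.7 ± 41.0 (SD, n = 4) in young epithelium, a log2 fold change of -0.13 ± 0.20, and Pcna 6.01 ± 3.24 and 5.06 ± 3.44, a log2 fold change of 0.08 ± 0.23.

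The summed levels overlapped as well. G2/M genes summed to 349 ± 112 (SD, n = 5) in aged and 384 ± 146 (SD, n = 4) in young epithelium, and G1/S genes to 144 ± 64.0 and 126 ± 39.4. Within the mice that have both layers the G2/M sums were 404.6, 354.0 and 502.5 in O1, O2 and O3 and 574.8 and 375.2 in Y1 and Y3. Within the other form of code they were 217.7 and 268.0 in OF5 and OM8 and 217.9 and 368.7 in YF5 and YM4. Both sets overlapped between the ages.

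**Figure D4:**
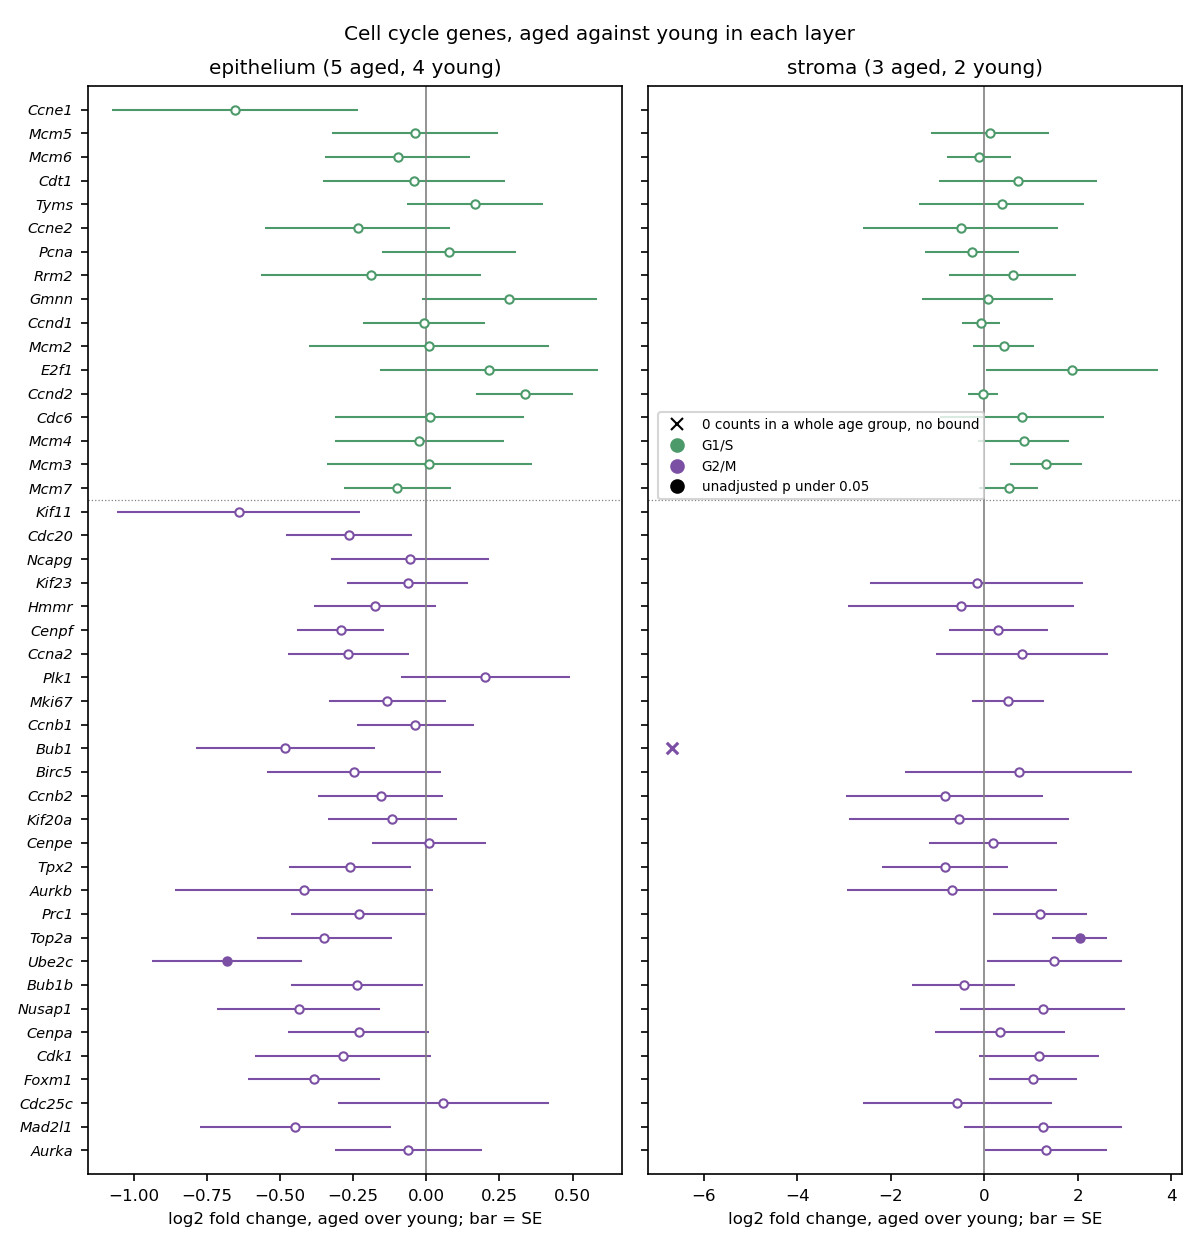
Log2 fold change of each member, aged over young, with its standard error, in epithelium (left, 5 aged and 4 young) and stroma (right, 3 aged and 2 young, on a wider axis), G1/S above and G2/M below the dotted line. Filled circles had an unadjusted p under 0.05 and none passed after adjustment; in epithelium 25 of 28 G2/M points lie below 0, with Ube2c at -0.68.

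In stroma, with 3 aged and 2 young libraries, 39 members were tested and 0 passed, as for 0 of the 21323 genes tested (0%). The smallest adjusted p of a member was 1.0 (edgeR). At an unadjusted p under 0.05 there were 2 members, Top2a and Bub1, against 3.64% of all genes, and DESeq2 called 0 members and 2 genes in all. Bub1 passed the filter on low counts only through the 2 young libraries, where it was high. Its p-value is therefore not read as support for a difference by age. G1/S medians were 0.39 and G2/M medians 0.33. Without O3 the G2/M median was -0.33, and with it 9 of the 23 G2/M and 5 of the 16 G1/S genes tested were below 0, against 50.9% of all genes.

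Single stromal genes went in opposite directions. Top2a stood at 8.40, 5.71 and 13.7 in O1, O2 and O3, with 2.68 and 1.81 in Y1 and Y3, above the young in all 3 aged mice (2.04 ± 0.58, adjusted p = 1.0, edgeR). Bub1 had 0 counts in all 3 aged mice and 12 and 13 counts in the young, and Plk1 0 counts against 17 and 9. Of the 39 members tested, 4 did not overlap between the ages (Bub1 and Tpx2 lower, Prc1 and Top2a higher in all aged mice), against 20.6% of all genes tested. Bub1 passed the filter only through the young libraries, so its lack of overlap followed from the filter and is not read as a result. Among the 6 members too low to test in stroma, Ccnb1, Plk1, Cdc20 and Ncapg were lower in every aged than in every young library. The share of all untested genes with this pattern was not taken, so it is not read as a result about the members. Tpx2, Prc1, Ccnb1, Cdc20 and Ncapg are named here after their values were seen. Mcm3 came next by p (1.32 ± 0.76, adjusted p = 1.0, edgeR). Mki67 (0.51 ± 0.77) and Pcna (-0.26 ± 1.01) overlapped between the ages.

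The stromal libraries differed in more than age. Aged stroma had 20115 to 25497 genes with a count, and young stroma 34224 and 41308, at 5980721 to 7641887 and 6297138 to 7386435 protein-coding counts. Members at 0 counts numbered 14, 6 and 6 in O1, O2 and O3 and 1 and 0 in Y1 and Y3. The basal marker sum reached 20.5, 40.3 and 62.1 in aged stroma but 14 and 14.6 in that of Y1 and Y3. The 5 smooth muscle markers summed to 940.9, 2051 and 815.6 in aged stroma and to 302.6 and 599.9 in that of Y1 and Y3, with log2 fold changes above 0 for all 5 (median 1.56, 4 of them at an unadjusted p under 0.05 and 0 after adjustment). Age and these differences between the libraries cannot be told apart in stroma.

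A test of whether the age difference itself differed between the layers, over the 10 libraries of the 5 mice with both, called 0 of 45 members and 0 of 22771 genes (0%), and with an unadjusted p under 0.05 there were 5 members against 4.30% of all genes. The 3 smallest p-values were those of Plk1, Bub1 and Top2a (adjusted p = 0.446, 0.547 and 0.597, edgeR). DESeq2 called these 3 members and 62 genes in all. For Plk1 and Bub1 the value rests on the 0 counts in aged stroma, so that no fold is given. Top2a had an interaction of -2.28 ± 0.51 on the log2 scale, where the epithelium of these mice was at 58.4, 47.5 and 65.9 normalized counts in O1, O2 and O3 and 83.5 and 51.0 in Y1 and Y3, and the stroma at the values above. Mki67 (-0.65 ± 0.82) and Pcna (0.36 ± 0.83) had interactions smaller than their standard errors (adjusted p = 1.0 for both, edgeR).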

How the data were processed

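Bulk mRNA libraries (oligo(dT)-selected, NEB Ultra II kit) of peeled esophageal epithelium and of stroma were sequenced by the authors, whose methods give alignment by Rsubread to GRCm38.p6 and who deposited featureCounts gene counts, 1 table per sample. The deposited values are raw counts; strand and multimapping settings are not given in the sources used here. Groups came from the sample titles. The 45 members, their phases and all other lists were chosen with earlier results of these data known, so no list is an independent test.

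Counts were fitted over all genes with edgeR 4.0.16 in R 4.3.3 (TMM, filterByExpr with a minimum count of 10, quasi-likelihood test, Benjamini-Hochberg adjusted p under 0.05); the unit for levels is CPM after TMM scaling. The fits were the layer (14 samples, no covariate), age in epithelium (9, with a term for codes of the OF5 form), age in stroma (5) and their interaction (10). Total counts were 13257833 to 21867101 in mice with both layers and 8217516 to 9399448 in the other 4. By rule, all members were named by layer; by age, the 3 members with the smallest p, Mki67 and Pcna; from other lists, the 3 largest called changes in each direction, CDK inhibitors and the RB family. DESeq2 1.42.0, upper quartile scaling, protein-coding genes alone, other filters, left-out mice and a replicate block were the alternatives. The block rests on samples of the same animal by their titles. Deviations of a mouse's layers from the means of its age correlated at 0.0894 on average (5 mice, 0.0423 to 0.141). Such deviations cancel within an age, so Y1 and Y3 share the same value. The -0.0555 between mice of one age follows from the same-mouse values. These correlations therefore cannot test the pairing. The closest pair of replicates differed by 9.93 times the chi-square of sampling noise, so none was a repeated library. The fits were tested on simulated data. Exon positions and lengths came from GENCODE M21. Mouse sex is not used. Intervals cover counting error only.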

Additional observations from a re-analysis of the deposited data

Results flagged for a closer look

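Of 94 groups of 4 or 5 epithelial samples examined (45 members and the 2 summed levels, by age), 4 held 1 sample far from the others by Dixon's criterion; chance alone sets apart about 1 in 20 groups. Values are log2 of the normalized count plus 0.5. In aged epithelium OM8 was the lowest for E2f1 at -0.042, with the other 4 mice at 1.27 to 1.60, and for Mcm4 at 1.10, with the others at 2.82 to 3.49. In young epithelium YF5 was the lowest for Gmnn at 0.81, with the other 3 mice at 1.37 to 1.43, and for Bub1 at 1.12, with the others at 2.14 to 2.22. OM8 and YF5 are 2 of the 4 shallow libraries, with 1424 and 741 counts over the 45 members. The flagged values rest on few raw counts, 2 for E2f1 and 7 for Mcm4 in OM8, and 3 for Gmnn and 4 for Bub1 in YF5. The part of depth in these values was not tested.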

How the results depend on the processing

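By layer, all members tested kept a log2 fold change above 0 under every alternative run. Requiring 10 counts in every sample left 10 members, of which 3 G1/S and 6 G2/M genes were called (4316 of 6711 genes in all, G2/M median 2.67). With the replicate block the G1/S and G2/M medians were 1.66 and 4.06, and 39 members were called, with Ccne2, Mcm7, Rrm2 and Mad2l1 gained and Tyms lost. Leaving out 1 mouse gave 7 to 11 G1/S and 25 to 27 G2/M calls; Gmnn, Tyms and Aurka lost theirs without O2, Y1 or Y3, Tyms and Aurka also with upper quartile scaling, Gmnn without a filter, and Mcm2 under 10 of the alternatives. Protein-coding genes alone moved the median of all genes by -0.17, with 35 members called. By age in epithelium, genes called numbered 28 with DESeq2, 36 without a filter, 0 without the covariate, 4 in the mice with both layers and 0 (without Y1) to 3 with a mouse left out, none of them members. In stroma they numbered 2 with DESeq2, 26 without a filter and 0 to 13 (without Y1; 7 without Y3) with a mouse left out; 10 counts in every sample gave medians of 0.042 (G1/S) and 1.01 (G2/M), and leaving out a mouse 0.066 to 0.68 and -0.33 (without O3) to 1.05. For the interaction they numbered 62 with DESeq2 and 98 without a filter, with 3 members each (Plk1, Bub1 and Top2a; Plk1, Cdc20 and Top2a); the G1/S median was 0.21 with 10 counts in every sample, 0.25 with the replicate block and -0.81 to 0.38 with a mouse left out, and the G2/M median -1.22 and -1.17 to 0.52. With a mouse left out, Mki67 ran from -0.28 to 0.072 in epithelium, -0.55 to 0.94 in stroma and -1.42 to 0.31 for the interaction, and Pcna from -0.083 to 0.26, -1.30 to 0.11 and -0.27 to 1.24. Where stroma keeps 1 young library, that library is assumed to vary like the aged ones. The causes were not tested.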
